A study of Mus musculus with 8 samples.

Results

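Among paired B-cell receptors of mouse spleen germinal-centre B cells, 3100 cells carried an IgM heavy chain with 4 or more nucleotide differences from the germline of its heavy variable (IGHV) gene, and these are termed heavily mutated IgM cells. They were 3100 of 37213 IgM cells with a difference count and of 40603 paired cells in all, a paired cell being a barcode with exactly 1 heavy and 1 light chain. The cells were chosen by their constant gene, IGHM (chromosome 12, 113418826 to 113422730, mm10), and by the difference count, so neither is a result. As germline served the commonest framework 1 to framework 3 stretch of each IGHV gene over all libraries, which 79 of 100 IGHV genes had cells enough to give. The other IgM cells comprised 28580 with no difference and 5533 with 1 to 3, and 1021 class-switched cells (IgG or IgA) passed the same threshold of 4.

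The cells came from mice without (KO, Dtx1-/-) or with (WT, Dtx1+/+) the gene for Deltex-1, a ubiquitin ligase linked to Notch signalling. Spleens were collected on day 10 following immunization; germinal-centre B cells were selected with peanut agglutinin beads and their receptors sequenced from droplets in 4 WT and 4 KO libraries. The immunogen, the number of mice and the Dtx1 allele are unknown from the labels, and receptor contigs do not show the knockout. Libraries of a genotype shared clonotypes (the same V genes and CDR3 sequences of both chains), 1541 of 9957 in WT and 2358 of 12179 in KO, whereas 35 occurred in both genotypes; each genotype is therefore treated as 1 pool of cells loaded in 4 portions. Between the pools, an SD or p-value therefore reflects how portions of a pool vary, and sets 2 pools against each other rather than animals. An SD over all 8 libraries also holds the gap between the pools. Tests within libraries count 8 portions of 2 pools as units, so their p-values do not speak for animals either.

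In a germinal centre, activation-induced deaminase (AID) turns cytosines of the variable genes into uracils, and repair of these lesions leaves point mutations. Mutations gather at the motifs AID prefers and in the complementarity-determining regions (CDR1 and CDR2), the loops that touch antigen, while the frameworks (FWR) hold the fold. The enzyme also starts class switching, so an IgM cell with many mutations has used AID at its variable genes without having replaced its constant gene.

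The libraries held 11666 to 14732 contigs, 754954 to 1155339 unique molecular identifiers (UMIs) and 4585 to 5712 paired cells each. Of 51304 distinct barcodes, 1671 occurred in 2 or more libraries, and 0 of them with the same heavy V gene and CDR3. As markers of other B cells, the B-1-associated gene IGHV12-3 was at 0 heavily mutated IgM cells and IGHV7-1 at 2, while IGHV11-2 had too few distinct CDR3 for a germline and could not be counted. Among other IgM cells, 89 in WT and 273 in KO carried IGHV12-3. A heavy-chain UMI count above the 99th percentile of a library's paired cells, as antibody-secreting cells could give, was found in 1.55% ± 0.397 (WT) and 1.02% ± 0.205 (KO; SD, n = 4 portions) of heavily mutated cells and in 0.639% ± 0.0993 and 0.877% ± 0.122 of IgM cells without differences. Its part in the results was not tested. No transcriptome was used, so germinal-centre genes could not be checked.

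Heavily mutated cells made up 12.4, 12.7, 11.6 and 12.9% of IgM cells in WT replicates 1 to 4, and 5.13, 5.2, 4.98 and 4.19% in KO replicates 1 to 4. Every WT portion was above every KO portion. The means were 12.4% ± 0.564 and 4.88% ± 0.466, a difference of -7.55 percentage points (KO minus WT; exact permutation p = 0.0286, adjusted p = 0.0667). In cells this was 547, 537, 487 and 539 per WT portion and 261, 276, 257 and 196 per KO portion. Of the 14 comparisons made between the pools, 6 gave this p, the smallest that 70 assignments of 8 libraries allow. At least 9 would have had to for the adjusted p to pass 0.05, so no comparison of single values between the pools was called.

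**Figure D1:**
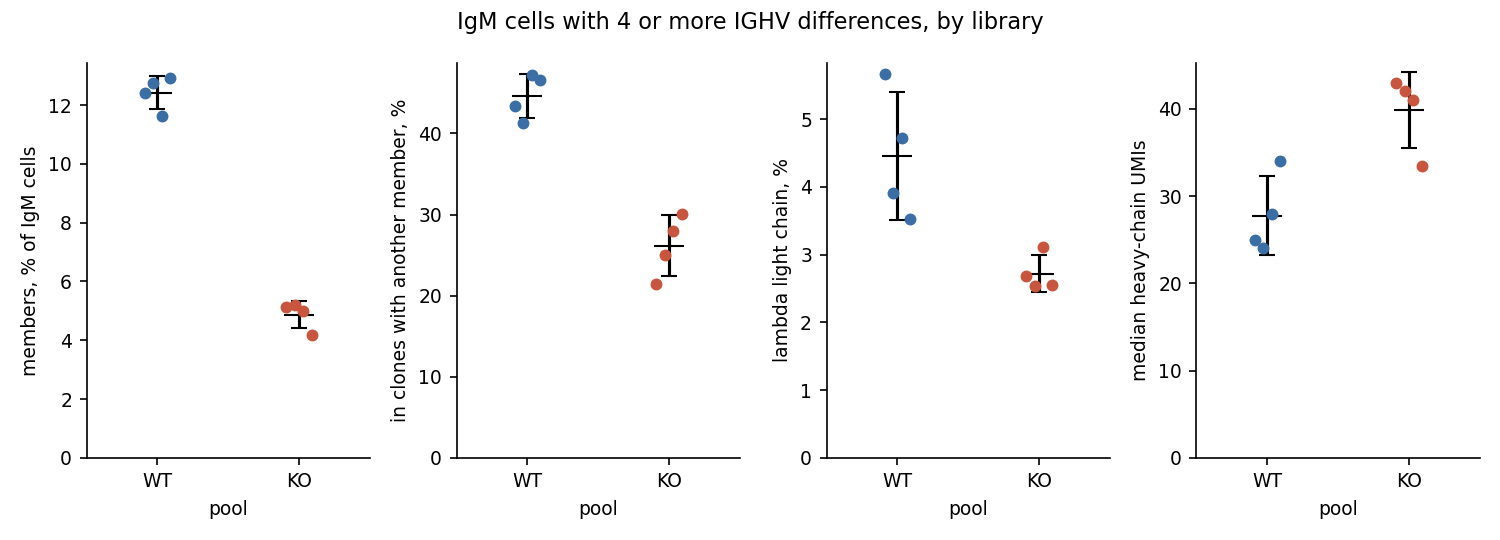
Heavily mutated IgM cells in the 4 WT and 4 KO libraries (points) with the mean and SD (bars): their share of IgM cells, the share in a clone with another such cell, the share with a lambda light chain, and the median heavy-chain UMIs per cell. The first 3 panels show WT portions above KO portions without overlap, and the medians of UMIs overlap between 33.5 (KO replicate 4) and 34 (WT replicate 4).

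In both pools most cells lay close to the threshold, with a median of 5 differences in each. Exactly 4 differences were found in 37.4% of WT and 41.9% of KO cells, and 6 or more in 36.3% and 31.2%. Mean differences per cell were 5.48 ± 0.0292 in WT and 5.39 ± 0.25 in KO. On either side of the threshold, cells with 3 and with 4 differences had 0.501 and 0.510% of light V nucleotides changed in WT, and 0.359 and 0.372% in KO.

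At the other end, the counts reached 57, and 12 cells had 20 to 57 differences. All 12 were among 35 cells (19 WT, 16 KO) whose sequence a join of 2 germlines matched with at least 3 fewer differences than their own germline did. Those 35 had a median of 4 heavy-chain UMIs against 32 in the rest, and 25 of 35 had no light V difference against 1128 of 2978. The WT cell with most differences, 57 from IGHV2-4, had 1 heavy-chain UMI and stayed 53 differences from the best join. In KO, 2 cells assigned to IGHV14-1 were 54 differences from it and 2 from IGHV1-7. Outside the 35, the highest count was 16 in WT and 13 in KO. A further 91 cells (83 WT, 8 KO) had a heavy chain that another barcode of the library carried with another light V gene. Their median was 2 heavy-chain UMIs against 33, and the same was true of 2.94% of heavily mutated and 2.81% of other IgM cells.

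Differences outside the sequence that chose the cells came with them. In light V genes, 0.548, 0.51, 0.514 and 0.553% of nucleotides differed in WT replicates 1 to 4, and 0.387, 0.415, 0.425 and 0.411% in KO. No KO portion reached a WT portion (means 0.531% ± 0.0224 and 0.410% ± 0.016; exact permutation p = 0.0286, adjusted p = 0.0667). No light V difference at all was found in 36.3% of WT and 42.4% of KO cells. Framework 4, the end of the heavy chain made by the J gene, differed from its most common sequence in 9.0% of WT cells (7.61 to 10.4%) and 5.56% of KO cells (5.36 to 5.8%), again without overlap (adjusted p = 0.0667, exact permutation test). Lower KO means were not particular to these cells. Light V mutation (WT, then KO) was 0.490 and 0.360% in IgM cells with 1 to 3 differences, and 0.714 and 0.459% in switched cells past the threshold. For framework 4 the means were 6.49 and 5.01%, and 13.4 and 8.49%.

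Both readouts were higher than in IgM cells without IGHV differences of the same library. Light V mutation was 0.470% ± 0.0673 against 0.0258% ± 0.00952 (SD, n = 8 libraries), higher in 8 of 8, and framework 4 differed in 7.26% ± 1.97 against 0.225% ± 0.092, also 8 of 8 (exact sign-flip permutation test over libraries, adjusted p = 0.0313 for both). The step from 1 to 3 differences to 4 or more was small: 0.425% to 0.470% of light V nucleotides, higher in 7 of 8 libraries (exact permutation, adjusted p = 0.0313), and 5.75% to 7.26% of cells for framework 4, higher in 7 of 8 and not called (exact permutation, adjusted p = 0.0536). With germlines taken only from genes with 50 or more distinct CDR3, the light V step was 0.0311 percentage points and no longer called (exact permutation, adjusted p = 0.0536).

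Over the 8 libraries, class-switched cells past the same IGHV threshold carried more differences in these other regions. The classes were not matched for IGHV differences: switched cells had 5.94 ± 0.147 (WT) and 5.36 ± 0.215 (KO) per cell, and heavily mutated IgM cells 5.48 ± 0.0292 and 5.39 ± 0.25. Its part in the gaps was not tested. Light V mutation of the switched cells was 0.586% ± 0.149, above the heavily mutated IgM cells in 7 of 8 libraries (exact permutation, adjusted p = 0.0433). The gap (IgM minus switched) was -0.183 ± 0.0676 percentage points in WT and -0.0496 ± 0.0713 in KO. Framework 4 differed in 10.9% ± 2.94 of switched cells, above in 8 of 8 (exact permutation, adjusted p = 0.0313), with gaps of -4.46 ± 1.05 percentage points in WT and -2.94 ± 2.1 in KO. Switched cells gave fewer heavy-chain UMIs, 16.8 ± 3.25 per cell against 33.8 ± 7.66, and more light-chain UMIs, 91.1 ± 9.63 against 79.1 ± 8.55 (exact permutation, adjusted p = 0.0313 for both); whether this bears on the differences was not tested. Without WT replicate 1, 3 or 4 or KO replicate 1, the calls for framework 4 (gaps of -4.07 to -3.38 percentage points over the 8 omissions) and heavy-chain UMIs (16.1 to 17.9) were lost, and the call for light-chain UMIs (-14.1 to -8.93) was kept only without KO replicate 2 (exact permutation, adjusted p 0.0469 to 0.0625). For framework 4 and heavy-chain UMIs the exact permutation p was then 0.0156, the smallest that 7 libraries allow, and the loss came through the adjustment. With 6 or more differences required in both classes, the light V gap was -0.139 percentage points (exact permutation, adjusted p = 0.101).

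**Figure D2:**
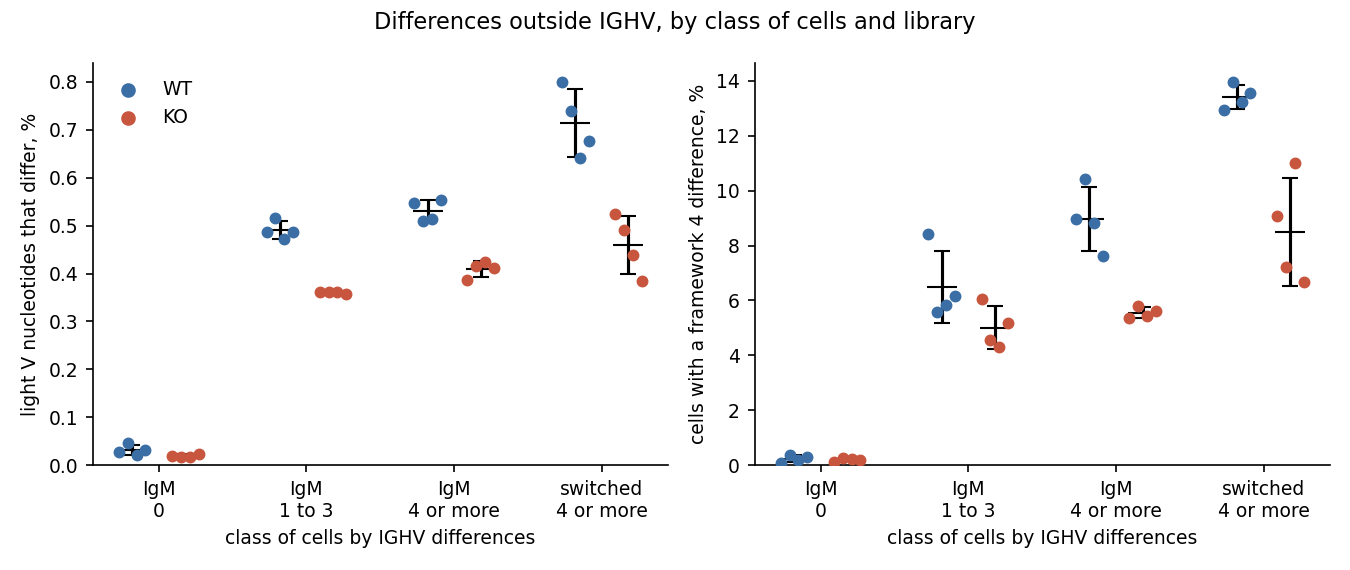
Percent of light V nucleotides that differ from the germline (left) and percent of cells with a difference in heavy framework 4 (right), in 4 classes of cells by IGHV differences; points are libraries and bars the mean and SD of each pool. Both readouts are near 0 in IgM cells without IGHV differences, and the switched cells lie above the heavily mutated IgM cells in both pools' means.

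With 1 library left out, the 7 that remain allow no p below 0.0156. The light V and framework 4 gaps to IgM cells without differences then had adjusted p of 0.0469 to 0.0625, and each call ended without WT replicate 1, 3 or 4 or KO replicate 1. In those omissions the exact permutation p stayed at 0.0156, so the calls were lost through the adjustment over the 24 tests. The direction stayed the same each time, with light V gaps of 0.433 to 0.456 and framework 4 gaps of 6.6 to 7.29 percentage points. The light V step from 1 to 3 differences, at 0.0419 to 0.0523 percentage points, kept its call only without WT replicate 2, and the light V gap to switched cells, at -0.137 to -0.0968, only without KO replicate 4 (adjusted p 0.0469 to 0.0865, exact permutation test).

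Substitutions at C and G lay mostly in the motifs that AID prefers. Counting each distinct substitution of a clone once, 10629 were found in WT and 5161 in KO, and G to A was the most frequent (22.2% and 21.6%), followed by C to T (15.7% and 15.9%) and A to G (14.2% in both). These motifs are the C of AAC, AGC, TAC and TGC, read on both strands so that the G of GTT, GCT, GTA and GCA counts too. Of germline C and G bases, 29.1% (WT) and 28.9% (KO) lie in these motifs, which overlap in AGCT. The counts and shares of substitutions, here and by region below, include the 35 cells (19 WT, 16 KO) that a join of germlines matched. Of substitutions at C or G, 69.2, 70.7, 69.9 and 69.9% fell there in WT replicates 1 to 4, and 68.8, 67.5, 68.7 and 68.9% in KO (means 69.9% ± 0.619 and 68.5% ± 0.627; exact permutation p = 0.0286, adjusted p = 0.0667).

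The loops carried the most changes per base. Each distinct substitution of a clone was counted once, and the count was divided by the bases of that region in the germlines of the clones. In WT this gave 5.72% in CDR2 and 4.1% in CDR1, against 1.32, 2.2 and 2.64% in FWR1, FWR2 and FWR3. KO values had the same order: 5.08 and 3.67% in CDR2 and CDR1, and 1.17, 1.83 and 2.29% in the frameworks. Clones with more cells can add more substitutions, and WT clones more often held more than 1 such cell. These are therefore not rates per cell, and their levels were not compared between the pools. Replacement changes, which alter the amino acid, were 84.2% of CDR2 substitutions in WT and 83.7% in KO, and 59.5% and 53.8% of those in FWR1. The ratio of CDR to FWR rates was 2.34 ± 0.121 and 2.37 ± 0.103 (exact permutation p = 0.8).

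Substitutions at A or T, which arise in the repair step after AID, were 42.3% ± 0.548 in WT and 43.3% ± 0.854 in KO (exact permutation, adjusted p = 0.133). They were 44.8% ± 1.64 in switched cells past the threshold, higher than in the heavily mutated IgM cells in 7 of 8 libraries (42.8% ± 0.863, n = 8 libraries; exact permutation, adjusted p = 0.0313). The motif share was also higher in switched cells, 71.2% ± 1.38 against 69.2% ± 0.975 in 8 of 8 libraries, and the replacement share 73.8% ± 1.7 against 72.5% ± 1.07 in 7 of 8 (exact permutation, adjusted p = 0.0313 for both). Without the cells that a join of germlines matched, these last gaps shrank to -0.497 and -0.969 percentage points and were not called (exact permutation, adjusted p = 0.563 and 0.121). The motif call was lost without WT replicate 1, 3 or 4 or KO replicate 1 (-2.23 to -1.49 percentage points over the 8 omissions), and the replacement call was kept only without WT replicate 2 (-1.52 to -0.781; exact permutation, adjusted p 0.0469 to 0.0625). For the motif share the exact permutation p was then 0.0156, the smallest that 7 libraries allow, and the loss came through the adjustment. The A or T call ended without any 1 library other than KO replicate 3 and with 6 or more differences (-2.2 percentage points, adjusted p = 0.107, exact permutation test).

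Single substitutions recurred in many clones of the most used genes, IGHV1-9 and IGHV1-81 (chromosome 12, 114583569 to 114583862 and 115920279 to 115920572, mm10). Their germlines are shown from the first base of framework 1, with capitals at the positions of the 9 substitutions found in most clones, ties included; positions are counted from that base. Below the germline of IGHV1-81 stands 1 member of the largest WT clone with capitals at its 4 differences (G9A, G92A, G251A, C255T).
IGHV1-81 germline: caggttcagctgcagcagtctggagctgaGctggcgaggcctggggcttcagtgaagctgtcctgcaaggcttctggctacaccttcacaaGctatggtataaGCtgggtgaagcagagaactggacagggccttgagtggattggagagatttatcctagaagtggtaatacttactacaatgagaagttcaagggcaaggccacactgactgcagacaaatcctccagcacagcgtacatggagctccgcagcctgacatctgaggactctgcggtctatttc
IGHV1-81 member: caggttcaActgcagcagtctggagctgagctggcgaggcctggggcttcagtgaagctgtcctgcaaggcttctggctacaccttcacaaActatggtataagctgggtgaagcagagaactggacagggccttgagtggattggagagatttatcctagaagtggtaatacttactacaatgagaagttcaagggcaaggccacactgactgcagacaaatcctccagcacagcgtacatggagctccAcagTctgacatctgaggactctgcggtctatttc
IGHV1-9 germline: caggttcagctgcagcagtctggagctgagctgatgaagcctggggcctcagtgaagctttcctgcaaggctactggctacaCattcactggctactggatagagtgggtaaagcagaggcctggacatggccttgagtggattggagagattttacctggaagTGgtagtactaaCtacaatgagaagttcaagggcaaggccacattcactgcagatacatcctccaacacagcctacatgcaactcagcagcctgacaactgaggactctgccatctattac

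In IGHV1-81 the change G92A, in codon 31 at the end of CDR1, was found in 68 of 214 clones with heavily mutated cells (31.8%). It lies in an AID motif and changes the amino acid (agc to aAc). It was present in 34.1% of 167 WT and 23.4% of 47 KO clones, in 22% of 82 clones with switched cells past the threshold and in 20.5% of 234 clones with IgM cells of 1 to 3 differences. The equivalent G92A of IGHV1-64 was in 25 of 136 clones (18.4%). The change G104A of IGHV1-81, in codon 35, was in 34 of 214 clones (15% WT, 19.1% KO), and the silent C105T of that codon in 26 of 167 WT clones but 1 of 47 KO clones. The silent G30A of FWR1 was in 26 of 214. Such shares are descriptions, since these substitutions were picked for their frequency and cells with 1 to 3 differences carry fewer by definition.

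In IGHV1-9 the changes gathered at the end of CDR2 and the start of FWR3. C177G, a replacement in codon 59, was in 42 of 248 clones (18.2% WT, 14.6% KO), and the silent C177T of the same base in 37 (15.7% and 13.5%). T165A, a replacement in codon 55 of CDR2, was in 37 clones, and G166A, a replacement in codon 56, in 26. G166A was in 13.4% of 82 clones with switched cells past the threshold and in 0.866% of 231 with IgM cells of 1 to 3 differences. C83T, a replacement in CDR1 outside the AID motifs, was in 30 clones (11.3% WT, 13.5% KO).

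**Figure D3:**
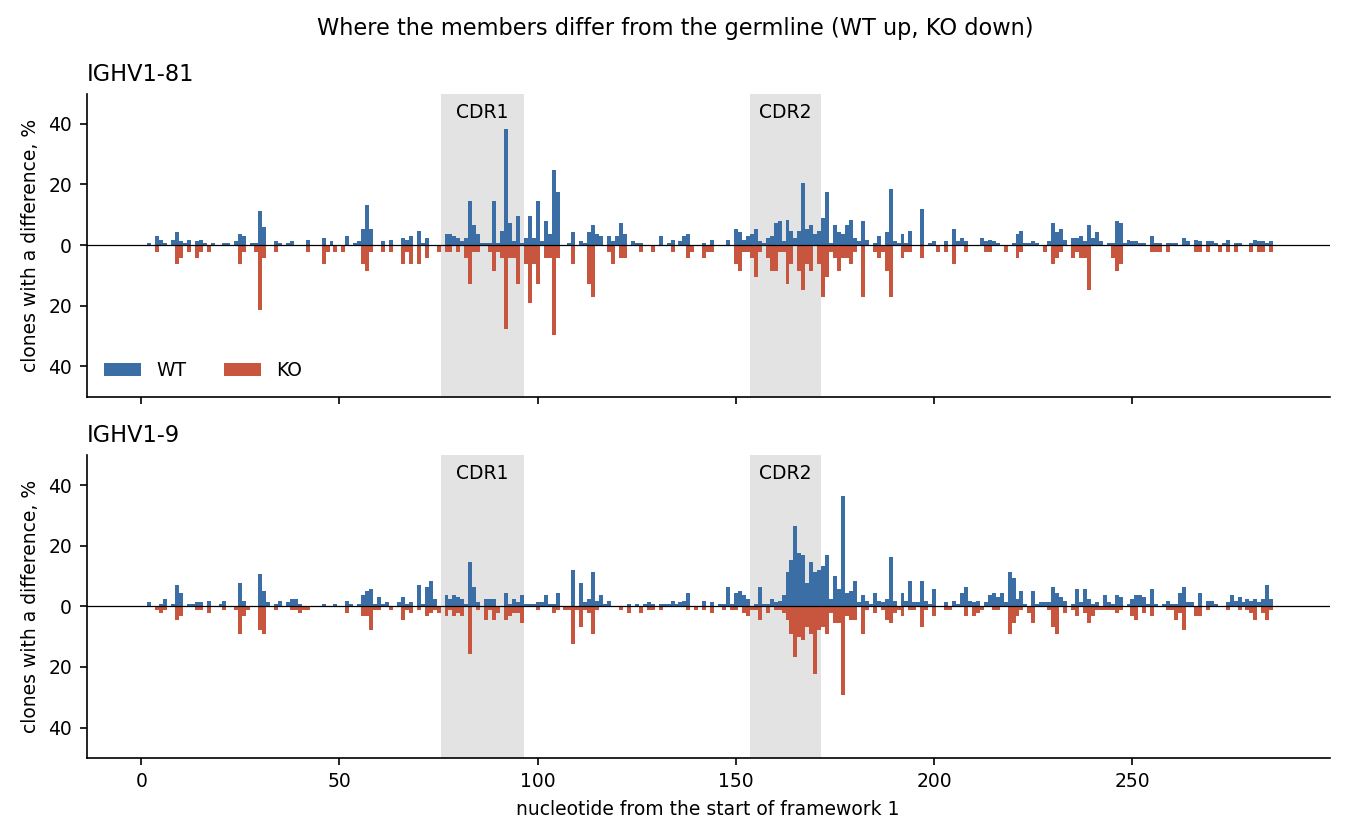
Percent of clones with heavily mutated IgM cells that differ from the germline at each nucleotide of IGHV1-81 (167 WT and 47 KO clones) and IGHV1-9 (159 and 89), with WT drawn upward and KO downward; grey bands are CDR1 and CDR2. The highest bars are position 92 in WT (38.3%) and position 104 in KO (29.8%) of IGHV1-81, and position 177 of IGHV1-9 in both pools (36.5% and 29.2%).

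Heavily mutated IgM cells used some IGHV genes more often than the IgM cells beside them. Cells per gene were compared with edgeR's quasi-likelihood test with the library as a block. The filter on low counts could be met through either class alone. The call of a gene that met it only through the class where it was high is not independent of the filter. Of 48 genes tested, 15 were called at an adjusted p under 0.05 (31.2%), 7 higher (14.6%) and 8 lower (16.7%), with a median log2 fold change of -0.01 over all 48. The genes were assigned by the authors' pipeline, and near-identical IGHV1 genes could be confused.

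IGHV1-9 made up 12.7% ± 0.677 of heavily mutated cells in WT and 11.2% ± 3.59 in KO, against 6.72% ± 0.329 and 4.12% ± 0.314 of other IgM cells (edgeR adjusted p = 8.72e-09, log2 fold change 1.08 ± 0.10 SE). IGHV1-64 rose by 1.28 ± 0.12 (log2; 5.22 against 2.24% in WT, 7.2 against 2.82% in KO; edgeR adjusted p = 8.72e-09) and IGHV1-81 by 0.68 ± 0.09 (12.1 against 6.96% and 7.13 against 5.41%; edgeR adjusted p = 7.98e-07). IGHV1-66 (1.18), IGHV1-19 (0.81) and IGHV1-75 (0.78) were also higher. The call of IGHV1-75 was lost without WT replicate 1 (0.74, edgeR adjusted p = 0.0541) and with each clone counted once (0.53, 0.0921).

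IGHV8-8 was 1.51% in WT and 3.29% in KO of heavily mutated cells against 4.74% and 6.9% of other IgM cells (log2 fold change -1.38 ± 0.14, edgeR adjusted p = 2.30e-08), and IGHV8-12 fell by 2.37 ± 0.25. IGHV7-3 was carried by 1 WT and 1 KO cell, against 115 and 237 other IgM cells (log2 fold change -3.72 ± 0.62, edgeR adjusted p = 3.38e-05). It passed the filter on low counts mainly through the other IgM cells, where it was high. IGHV1-18 (-1.44), IGHV2-5 (-1.01) and IGHV9-3 (-0.52) were lower as well. IGHV1-72, the main gene of the response to nitrophenyl haptens, was not called (0.12 ± 0.18): it was in 2.59% of heavily mutated and 1.93% of other IgM cells in WT, and in 3.21% and 3.85% in KO. IGHV1-55, IGHV1-53, IGHV1-71 and IGHV1-26, among the most used, were not called either (0.02 to 0.40). Calls appeared for IGHV1-71 with each clone counted once (0.72, edgeR adjusted p = 0.00499), and for IGHV1-26 with no filter on low counts (0.40, adjusted p = 0.0382), at 3 or more differences (0.36, adjusted p = 0.0302) and without KO replicate 2 (0.54, adjusted p = 0.00573).

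For kappa V genes, 16 of 57 tested were called (28.1%), 7 higher (12.3%) and 9 lower (15.8%), around a median of -0.42. Here too the filter on low counts could be met through either class alone, so these calls carry the same limit. With TMM factors (median -0.27) 13 were called, 7 higher and 6 lower, and with DESeq2 (median -0.23) 11, 7 higher and 4 lower. IGKV1-110 made up 10.7% ± 1.71 of heavily mutated cells in WT and 6.76% ± 1.86 in KO, against 4.46 and 2.99% of other IgM cells (log2 fold change 1.19 ± 0.13, edgeR adjusted p = 7.42e-06). IGKV4-74 (1.28), IGKV14-111 (0.96) and IGKV1-117 (0.80) were higher too, although IGKV4-74 was not called with each clone counted once (0.77, edgeR adjusted p = 0.155). IGKV14-100 (-1.90), IGKV12-38 (-1.40), IGKV17-127 (-1.27) and IGKV4-72 (-0.98) were lower, the last not without WT replicate 4 (-0.91, edgeR adjusted p = 0.0536) or with DESeq2 (-0.76, adjusted p = 0.151). IGKV6-15 (0.50) was called with all libraries but not without WT replicate 2, 3 or 4 (0.43 to 0.46, edgeR adjusted p = 0.0587 to 0.0627). Without WT replicate 4, the count of called kappa genes was 8. IGKV6-13 stood apart in WT replicate 2, with 3.72% of heavily mutated cells there and 0 to 2.34% in the other 7 libraries.

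**Figure D4:**
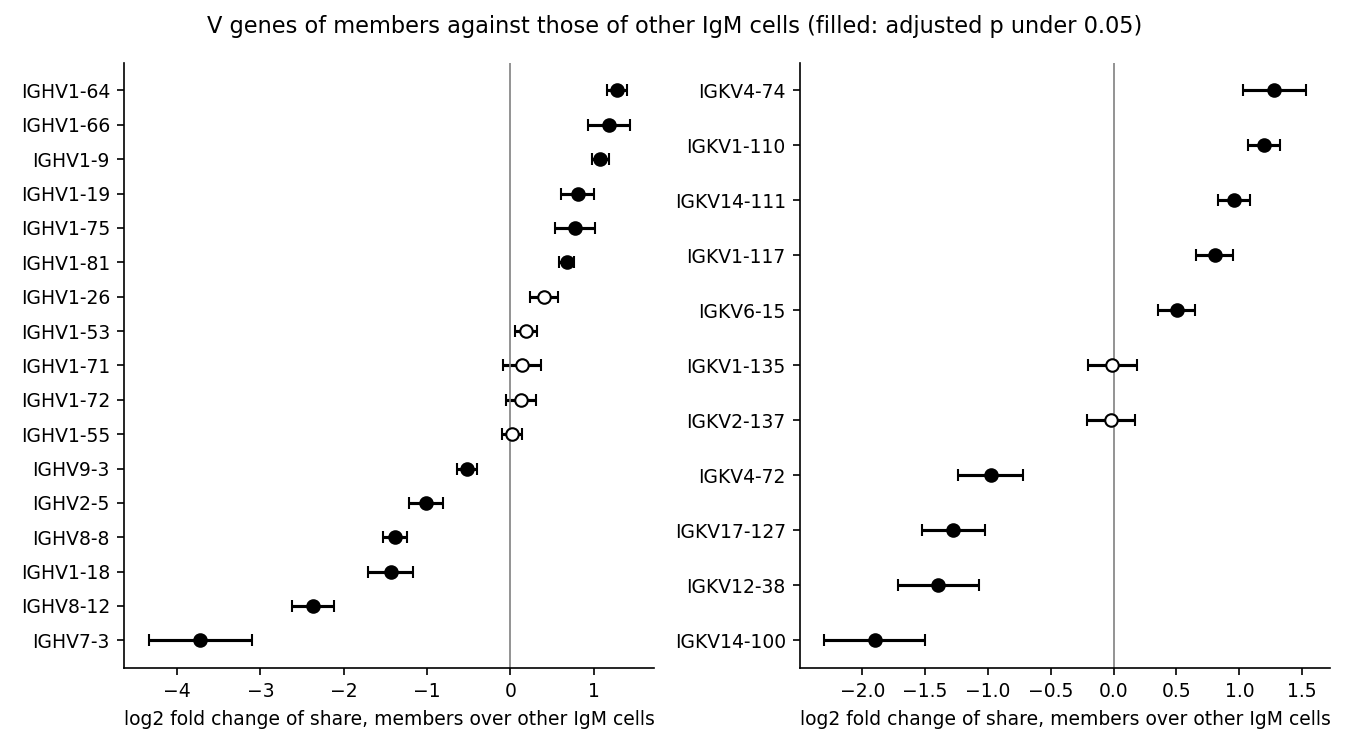
Log2 fold change of the share of each named IGHV (left) and IGKV (right) gene in heavily mutated IgM cells over other IgM cells of the same library, with the standard error; filled points have an edgeR adjusted p under 0.05. Higher genes range to 1.28 in both panels, and the lowest are IGHV7-3 at -3.72 and IGKV14-100 at -1.90.

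Between the pools, few V genes had enough cells for a test. Of 11 IGHV genes tested among heavily mutated cells, 2 were called (18.2%), 1 lower and 1 higher in KO (9.09% each), around a median log2 fold change of -0.14. IGHV1-81 held 11.3, 13.8, 12.7 and 10.6% of these cells in WT replicates 1 to 4, and 8.05, 7.61, 6.23 and 6.63% in KO, so that every KO portion was below every WT portion (log2 fold change -0.75 ± 0.15, edgeR adjusted p = 0.00735). With TMM factors, which move the median of the tested genes to 0.11, it was -0.50 and not called (edgeR adjusted p = 0.0788), and with DESeq2 -0.54 (adjusted p = 0.3); either way 1 gene was called, IGHV8-8, higher in KO. IGHV8-8 was higher in KO: 2.01, 1.3, 1.44 and 1.3% in WT and 3.06, 2.9, 3.11 and 4.08% in KO (log2 fold change 1.08 ± 0.19, edgeR adjusted p = 0.0153). The filter on low counts asked for a minimum share in 4 libraries, and IGHV8-8 reached it in the KO portions only. It was thus tested only through the pool where it was high, and its call is not independent of the filter. That call was lost without KO replicate 4 (0.98, edgeR adjusted p = 0.102) and with no filter on low counts (1.08, adjusted p = 0.0975). With any 1 WT replicate left out, the filter's cutoff, set by the median number of cells per library, rose and IGHV8-8 was not tested. That left 1 call without WT replicate 1, 3 or 4, while without WT replicate 2 IGHV1-64 was called in its place (0.60, edgeR adjusted p = 0.0405). IGHV8-8 was also higher in KO among other IgM cells, at 6.9% ± 0.199 against 4.74% ± 0.353.

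Of 8 kappa genes tested between the pools, 2 were called (25%), both lower in KO, around a median of -0.21. IGKV1-135 was 3.66, 4.84, 5.95 and 4.27% in WT replicates 1 to 4 and 1.15, 2.17, 0.778 and 3.06% in KO, without overlap (log2 fold change -1.44 ± 0.30, edgeR adjusted p = 0.000132). It reached the filter on low counts in the WT portions but in KO only in replicate 4, so it was tested mainly through the pool where it was high. Against other IgM cells of the same library IGKV1-135 was not called (log2 fold change -0.01 ± 0.20 SE). Whether its pool difference is particular to heavily mutated cells was not tested. The largest WT clone, with IGHV1-81 and IGKV1-135, held 21 heavily mutated cells. IGKV1-110 was -0.70 ± 0.26 (edgeR adjusted p = 0.0436), a call lost without WT replicate 3 or 4 or KO replicate 1, 2 or 4 (-0.75 to -0.57, adjusted p = 0.0636 to 0.193) and with TMM factors (-0.42, 0.198), DESeq2 (-0.42, 0.172) or without the cells that a join of germlines matched (-0.68, 0.062). The count of called kappa genes was 4 without KO replicate 3.

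Clones were defined as cells of a pool with the same heavy and light V and J genes and a heavy CDR3 of the same length, linked at a nucleotide identity of 0.85 or more. Such a group can join cells of similar CDR3 that do not descend from the same cell. The words clone and sister therefore mean membership of a group here, and descent was not tested. The 2110 WT cells fell in 1488 clones, of which 1170 held 1 of them, 192 held 2 and 126 held 3 or more. The 990 KO cells fell in 830 clones, of which 734 held 1, 62 held 2 and 34 held 3 or more. In WT replicates 1 to 4, 43.3, 41.3, 47.2 and 46.6% of heavily mutated cells shared a clone with another; in KO replicates 1 to 4 the share was 21.5, 25, 28 and 30.1%, below WT in every portion (exact permutation p = 0.0286, adjusted p = 0.0667). The WT pool had more of these cells to be matched, and with numbers of cells unmatched that part of the gap was not tested.

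Heavily mutated cells shared clones with less mutated and with switched cells. An IgM cell without differences was a sister of 16.3% ± 1.08 of them in WT and 19.5% ± 3.5 in KO, and a switched cell of 15.1% ± 1.22 and 13.6% ± 3.6 (exact permutation, adjusted p = 0.24 and 0.567). A switched sister was more frequent than for IgM cells without differences, 14.3% ± 2.61 against 6.68% ± 3.43, in 8 of 8 libraries (exact permutation, adjusted p = 0.0313), and 12.9% ± 2.78 of cells with 1 to 3 differences had one (adjusted p = 0.417). Clones span the portions of a pool, so 1 switched cell can mark sisters in every portion. The library values of a pool are therefore not independent here. The call against IgM cells without differences ended without WT replicate 1, 3 or 4 or KO replicate 1 (gaps of 6.59 to 8.22 percentage points over all 8 omissions, exact permutation, adjusted p 0.0469 to 0.0625). In those omissions the exact permutation p was 0.0156, the smallest that 7 libraries allow, so the loss came through the adjustment over the 24 tests. Clones with both kinds held 353 switched cells in WT, of which 35.4% were IGHG1, 33.4% IGHG3 and 28.6% IGHG2B, and 201 in KO, of which 79.6% were IGHG1. Over all switched cells of the pool, IGHG1 was 45.2% in WT and 78.9% in KO.

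The largest clones differed in the classes they held. In WT, the clone of IGHV1-81, IGHJ2 and IGKV1-135 had 102 cells: 49 IgM without differences, 25 with 1 to 3, 21 heavily mutated (5, 8, 5 and 3 per portion) and 7 switched. The next were IGHV1-53 with IGKV9-124 and IGHV14-2 with IGKV4-59, with 11 heavily mutated cells each and no IgM cell without differences. In KO, IGHV1-64 with IGKV4-74 had 10 (0, 1, 5 and 4 per portion) of 18 cells, IGHV1-71 with IGKV2-137 had 9, and IGHV1-81 with IGKV1-110 had 7. No difference was common to all heavily mutated cells in any of these 6 clones.

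Clone mates shared few of their differences. Of clones with 3 or more heavily mutated cells, 32 of 126 in WT and 5 of 34 in KO had a difference common to all of them. Among pairs of these cells with identical heavy and light CDR3, 187 of 262 in WT (71.4%) and 44 of 66 in KO (66.7%) shared at least 1 substitution, on average 1.97 and 2.09. Pairs of one clone with another heavy CDR3 did so in 42% and 37.7%, and pairs with the same V gene in different clones in 18.8% and 15.8%. Pairs share cells and clones, so these are descriptions.

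Some groups with identical CDR3 did share several changes. These examples were chosen after their values were seen. A WT group of 5 cells with IGHV1-66, IGHJ3 and IGKV4-70 (3 in replicate 1, 2 in replicate 3) had T94G, C103T and G109C in all 5, with 5 to 10 differences per cell. A KO group of 3 cells with IGHV1-52, IGHJ2 and IGKV14-111 had A56G, G102A, G114A, G189A and A281T in all 3, with 6 or 7 differences per cell, beside 2 switched cells. By contrast 5 KO cells with IGHV1-64, IGHJ1 and IGKV4-74 shared none in all 5, and G92A in 4. The cell with most differences of each of the first 2 groups is shown with its differences from the germline in capitals.
IGHV1-66 cell, WT: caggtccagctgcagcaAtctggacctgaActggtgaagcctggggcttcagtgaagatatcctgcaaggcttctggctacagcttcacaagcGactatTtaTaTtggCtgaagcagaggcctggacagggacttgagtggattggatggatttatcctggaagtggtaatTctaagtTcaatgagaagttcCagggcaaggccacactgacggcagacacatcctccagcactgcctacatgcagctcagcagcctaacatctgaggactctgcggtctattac
IGHV1-52 cell, KO: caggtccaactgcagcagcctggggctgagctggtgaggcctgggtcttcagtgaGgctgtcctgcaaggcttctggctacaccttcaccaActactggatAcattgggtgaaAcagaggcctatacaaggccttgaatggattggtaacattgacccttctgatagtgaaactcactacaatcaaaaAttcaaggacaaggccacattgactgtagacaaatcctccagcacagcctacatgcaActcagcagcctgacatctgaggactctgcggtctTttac

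Other features of the receptors set the cells apart less. A lambda light chain was found in 5.67, 3.91, 4.72 and 3.52% of heavily mutated cells in WT replicates 1 to 4 and in 2.68, 2.54, 3.11 and 2.55% in KO (exact permutation p = 0.0286, adjusted p = 0.0667). Over the 8 libraries this was 3.59% ± 1.13 against 5.09% ± 2.15 of IgM cells without differences, lower in 7 of 8 (exact permutation, adjusted p = 0.0313). By pool, IgM cells without differences had 7.09% ± 0.251 (WT) and 3.08% ± 0.155 (KO), so a lower KO share was not particular to heavily mutated cells. The gap between these classes was -2.64 ± 1.18 percentage points in WT and -0.361 ± 0.395 in KO. The lambda call held only without KO replicate 3 (-1.74 to -1.17 percentage points over the 8 omissions, exact permutation, adjusted p = 0.0469 to 0.0625). With the threshold at 3 or at 6 differences it was lost (-1.37 and -2.28, exact permutation, adjusted p = 0.132 and 0.101). Heavy CDR3 averaged 43.1 ± 0.454 nucleotides in WT and 42.7 ± 0.409 in KO (exact permutation, adjusted p = 0.255). Median heavy-chain UMIs per cell were 25, 24, 28 and 34 in WT and 43, 42, 41 and 33.5 in KO (exact permutation p = 0.0571, adjusted p = 0.114), and IgM cells without differences had 23.3 ± 1.26 and 41.5 ± 1.92. With heavy-chain UMIs between 20 and 40, the share of heavily mutated cells differed by -6.89, light V mutation by -0.0949 and the share in a clone with another by -21.0 percentage points (KO minus WT, exact permutation p = 0.0286 for each, adjusted p = 0.133). Framework 4 differed by -4.13 (exact permutation p = 0.0571) and the motif share by -2.02 percentage points (p = 0.6). The lambda (0.302) and switched-sister (2.75) differences changed sign. The part of UMI depth in these differences was not tested.

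The gaps between classes were also compared between the pools. Of these 24 comparisons none was called (exact permutation, smallest p = 0.0286, adjusted p = 0.137). The light V gap to IgM cells without differences was 0.499 ± 0.0277 percentage points in WT and 0.390 ± 0.0171 in KO, and the gap in switched sisters 5.21 ± 1.57 and 10.1 ± 3.6.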

How the data were processed

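Receptor contigs of 8 libraries (4 WT, 4 KO) were analysed. Reads and UMIs per contig are deposited as whole-number counts, per the file headers, with no normalization. The submitters' processing notes name Cell Ranger (version not given in the sources used here), mm10 and R 4.3.1. V, J and constant genes are the authors' assignments. All 104649 contigs were marked as cell-associated, full-length and productive. Barcodes with more than 1 heavy or light chain were left out, and no doublet caller was run.

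Germline sequences came from V genes with 20 or more distinct CDR3 (79 of 100 IGHV and 68 of 102 light V genes) and were compared only at equal length. Of 37489 IgM paired cells, 247 had no germline and 29 another length. An allele not in the majority would count as differences. Clones were linked within a pool at a CDR3 identity of 0.85 (single linkage). Single values were compared between the pools by a two-sided exact permutation test over 70 assignments (14 tests), and within libraries by a two-sided exact sign-flip permutation test over 8 differences (24 tests), each family with Benjamini-Hochberg adjustment and a call at an adjusted p under 0.05. Numbers of cells per V gene entered edgeR's quasi-likelihood test (version 4.0.16; filterByExpr; cells of the class as library size; Benjamini-Hochberg) or, as an alternative, DESeq2 1.42.0, both in R 4.3.3. The edgeR fits and the permutation tests were tested on simulated data. Tables were handled in pandas 2.3.3 under Python 3.11.15, permutation tests in NumPy 2.4.6, codons in Biopython 1.88 and plots in matplotlib 3.10.9.

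The heavily mutated cells, the gene lists and the naming rule were chosen with earlier results of these data known. The text names the 8 most used IGHV and 5 most used IGKV genes, up to 6 IGHV and 4 IGKV genes called in each direction and comparison, the IGHJ and IGLV genes, the B-1-associated genes and IGHV1-72, the substitutions found in most clones (at least 8) and the 3 clones of each pool with most such cells. Gene positions are from RefSeq (GRCm38.p6, the mm10 build), where all 161 V genes of these cells matched a symbol. Germline and cell sequences are from the deposited contigs. The alternatives were the threshold, UMI minimums, germline support, clone identity and scope, counting each clone once, scaling, filters, each library left out and the replicate number as a block.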

Additional observations from a re-analysis of the deposited data

Results flagged for a closer look

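In the KO pool, 67.52% of the C and G substitutions of heavily mutated IgM cells in replicate 2 lay in the AID motifs, against 68.77, 68.66 and 68.85% in replicates 1, 3 and 4. Its gap to the nearest of the other 3 libraries was 0.857 of the whole range, which is wide for 4 samples. About 1 in 20 groups is picked out this way by chance. These shares include cells that a join of germlines matched. Among them were 1 cell of 54 differences in each of KO replicates 2 and 3, and 1 of 49 in KO replicate 1. Their part in the value of replicate 2 was not tested.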

How the results depend on the processing

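For each value below the cause of the change was not tested. Of the values of comparisons under settings other than leaving out a library, 278 kept their direction and their side of the threshold of an adjusted p under 0.05, 9 lost and 4 gained a call, 15 changed sign and 10 counts of genes moved by over 1.5 times. None of the values that changed sign had been called.

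Values are differences KO minus WT, or heavily mutated IgM cells minus the other class. Between the pools the CDR to FWR ratio, not called under any setting, changed sign at 3 or more differences (-0.0321), at 6 or more (-0.156), with 5 or more UMIs in both chains (-0.0144), without difference sets found in another clone (-0.00775), at 20 to 40 heavy-chain UMIs (-0.355) and with every substitution counted (-0.00427). At 6 or more differences the mean number of differences (0.269) and CDR3 length (0.222 nucleotides) changed sign, at 20 to 40 UMIs switched sisters (2.75) and lambda (0.302 percentage points), and at a clone identity of 0.95 switched sisters (0.458).

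Between classes, the lambda gap to IgM cells without differences lost its call at 3 or more (-1.37) and 6 or more differences (-2.28). At 6 or more, the gaps to switched cells in light V mutation (-0.139), light-chain UMIs (-9), A or T substitutions (-2.2) and replacements (-2.85) lost theirs, the CDR to FWR gap (-0.179) gained one (exact permutation, adjusted p = 0.0234), CDR3 length (0.465) turned, and so did switched sisters (-0.988) and lambda (-0.808) against cells with 1 to 3 differences. With 5 or more UMIs the framework 4 step (1.61 percentage points) and the CDR3 length gap (-0.35 nucleotides) to cells with 1 to 3 differences were called (exact permutation, adjusted p = 0.0375 for both). Germlines from 50 or more distinct CDR3 ended the light V step (0.0311). Without difference sets found in another clone, light-chain UMIs against 1 to 3 differences turned (1.31). Without cells matched by a join, an alternative chosen after seeing the data, the framework 4 step was called (1.49, exact permutation, adjusted p = 0.0469), while the motif (-0.497) and replacement gaps (-0.969) to switched cells were not.

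Among V genes between the pools, TMM factors called 1 IGHV and 1 IGKV gene, and DESeq2 called 1 and 1. No filter on low counts called 1 and 6, 3 or more differences 8 and 5, and leaving out joins 1 IGKV gene. Genes that were not called changed sign: with TMM IGHV1-26 (0.11), IGHV1-9 (0.0316), IGKV1-117 (0.0121), IGKV14-111 (0.19) and IGKV6-15 (0.12), with DESeq2 IGHV1-26 (0.057), IGKV1-117 (0.0176), IGKV14-111 (0.20) and IGKV6-15 (0.12), at 3 or more differences IGHV1-26 (0.15), IGHV1-71 (-0.13) and IGKV2-137 (-0.26), and with each clone counted once IGHV1-71 (-0.32). Against other IgM cells, no filter called 24 IGHV genes. IGKV1-135 turned with TMM (0.15), DESeq2 (0.11) and each clone once (0.0904), and IGKV2-137 with TMM (0.15), DESeq2 (0.23) and each clone once (0.51, edgeR adjusted p = 0.00944).

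Leaving out 1 library gave these ranges. Between the pools, the CDR to FWR ratio was -0.0216 to 0.0647, differences per cell -0.167 to 0.023, called IGHV genes 1 to 2 and IGKV genes 1 to 4. To IgM cells without differences, the gaps were 0.433 to 0.456 (light V), 6.6 to 7.29 (framework 4), 6.59 to 8.22 (switched sisters), -1.74 to -1.17 (lambda) and 10.1 to 13.8 (light-chain UMIs). To cells with 1 to 3 differences they were 0.0419 to 0.0523 (light V), -0.0151 to 0.218 (lambda), -1.64 to 0.929 (light-chain UMIs) and -0.483 to -0.317 (CDR3 length). To switched cells they were -0.137 to -0.0968 (light V), -4.07 to -3.38 (framework 4), 16.1 to 17.9 (heavy-chain UMIs), -14.1 to -8.93 (light-chain UMIs), -2.23 to -1.49 (motif), -2.36 to -1.49 (A or T) and -1.52 to -0.781 (replacement). Called IGKV genes against other IgM cells were 8 to 18. Genes whose sign turned ranged, between the pools, over -0.32 to 0.17 (IGHV1-26), -0.44 to 0.33 (IGHV1-71) and -0.0452 to 0.20 (IGKV2-137), and against other IgM cells over -0.052 to 0.13 (IGHV1-55), -0.0423 to 0.30 (IGHV1-71), -0.0113 to 0.22 (IGHV1-72), -0.15 to 0.10 (IGKV1-135) and -0.17 to 0.12 (IGKV2-137).

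Same-numbered WT and KO libraries did not deviate together (correlations over 57 genes of -0.0185, -0.0849, -0.0308 and -0.329), so the numbers do not pair them. A replicate block in edgeR called 2 IGHV and 2 IGKV genes, the same genes as without it. For single values such pairing allows no p below 0.125. The design limits what can be called between the pools: 4 libraries against 4 give no p below 0.0286, and with 196 to 547 heavily mutated cells per library few V genes could be tested.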

Other observations

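The heavy J gene most used by heavily mutated IgM cells was IGHJ2 in both pools. It made up 33.3% ± 2.15 of heavily mutated cells in WT and 32.4% ± 1.29 in KO (SD, n = 4 portions), against 29.7% and 30.01% of other IgM cells. IGHJ3 followed at 27.6% and 25.7%, IGHJ4 at 24.1% and 25.5%, and IGHJ1 was least used, at 14.98% and 16.5%. These shares were not tested.

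Of the lambda V genes, IGLV1 was the most used, in 3.31% of heavily mutated cells in WT and 2.15% in KO. IGLV2 was in 0.81% and 0.351%, and IGLV3 in 0.334% and 0.223%, the last beside 1.2% and 0.151% of other IgM cells. With 2 to 17 cells per pool, the IGLV2 and IGLV3 shares rest on few cells. Transitions, changes between bases of one chemical class, made up 57.7% of substitutions in WT and 58.5% in KO. Clones with heavily mutated cells in all 4 portions numbered 22 of 1488 in WT and 2 of 830 in KO. The WT pool had more such cells to be found in every portion, and the numbers of cells were not matched.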
